A study of Mus musculus with 6 samples.

Results

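The metallothionein and zinc response genes described here are 8 mouse genes, the metallothioneins Mt1, Mt2, Mt3 and Mt4, the transcription factor Mtf1 and the zinc transporters Slc30a1, Slc39a14 and Slc39a8. They were chosen by name, as every probe set annotated to them alone on the Affymetrix chips MOE430A and MOE430B, and all 8 were found among 18194 measured genes. They had 18 probe sets, 12 on MOE430A and 6 on MOE430B. RNA came from myospheres, spheres of cells taken from the hind leg muscle of Balb/c males and sorted with the Sca1 antigen. The cells spent 4 days in neurocult, a neural stem cell medium, with LIF, B27, EGF and an additive the labels spell bf6f, and were at passage 1, and the RNA preparation used 2000000 cells. Replicates 1, 2 and 3 were each hybridised to both chips, which gave 6 arrays of 1 condition with no second group. Whether the replicates were grown separately or are repeat readings of 1 RNA is not in the labels, so the spread given below may be technical.

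Metallothioneins are small, cysteine-rich proteins that bind zinc and copper, buffer free zinc and bind toxic metals such as cadmium. When free zinc rises, the zinc finger factor encoded by Mtf1 binds metal response elements in the promoters of Mt1, Mt2 and Slc30a1 and raises their transcription, so that zinc is bound or carried out of the cell. Glucocorticoids, cytokines of the interleukin-6 family and oxidative stress also induce Mt1 and Mt2. Mt3 is known mainly from brain and Mt4 from stratified squamous epithelium.

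The 4 metallothionein genes lie together on mouse chromosome 8 in the order Mt4, Mt3, Mt2, Mt1, with the lncRNA gene Gm39227 between Mt3 and Mt2 in RefSeq for GRCm38.p6. Promoter sequences are shown for these 4 genes and for Slc30a1, because Mt1 and Mt2, described below, were above the background limit while Mt3, Mt4 and Slc30a1 were not called above it. Each sequence is the 250 bases before the start site in the RefSeq promoter table of GRCm38.p6, on the plus strand, with matches to the core of the metal response element in capitals. The core was searched as TGCACNC and TGCGCNC on both strands, so a match on the minus strand reads as its reverse complement.
Mt1, chr8:94178839-94179088: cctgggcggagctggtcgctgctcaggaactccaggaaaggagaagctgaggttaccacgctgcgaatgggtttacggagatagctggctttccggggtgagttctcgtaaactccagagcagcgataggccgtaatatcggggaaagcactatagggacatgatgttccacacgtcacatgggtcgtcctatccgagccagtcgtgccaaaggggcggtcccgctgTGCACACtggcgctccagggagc
Mt2, chr8:94172368-94172617: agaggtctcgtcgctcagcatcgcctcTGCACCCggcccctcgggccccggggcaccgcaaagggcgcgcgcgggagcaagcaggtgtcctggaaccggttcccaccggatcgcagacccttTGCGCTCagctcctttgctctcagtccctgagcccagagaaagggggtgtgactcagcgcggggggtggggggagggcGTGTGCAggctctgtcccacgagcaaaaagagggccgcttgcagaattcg
Mt3, chr8:94152357-94152606: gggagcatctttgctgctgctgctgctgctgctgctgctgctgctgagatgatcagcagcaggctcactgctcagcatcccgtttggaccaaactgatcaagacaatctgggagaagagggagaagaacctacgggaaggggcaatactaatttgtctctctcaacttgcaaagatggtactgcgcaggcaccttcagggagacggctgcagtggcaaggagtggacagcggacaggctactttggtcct
Mt4, chr8:94136954-94137203: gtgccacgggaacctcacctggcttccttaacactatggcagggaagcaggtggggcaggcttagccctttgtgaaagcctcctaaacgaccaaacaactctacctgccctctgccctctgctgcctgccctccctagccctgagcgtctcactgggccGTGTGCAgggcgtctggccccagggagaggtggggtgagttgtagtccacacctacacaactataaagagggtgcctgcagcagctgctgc
Slc30a1, chr1:191906531-191906780: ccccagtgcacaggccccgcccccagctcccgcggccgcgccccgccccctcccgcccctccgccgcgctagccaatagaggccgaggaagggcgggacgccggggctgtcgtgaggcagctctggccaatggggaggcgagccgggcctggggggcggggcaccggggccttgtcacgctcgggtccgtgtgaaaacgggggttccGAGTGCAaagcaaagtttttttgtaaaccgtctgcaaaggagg

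With the 50 bases after the start site included, the Mt2 window held 4 matches to the core and the Mt1 window 3. At least 4 matches were found in 0.517% of the 32851 windows of the table and at least 3 in 1.97%. The matches of Mt1 began at -23, 3 and 21 from the start site and those of Mt2 at -223, -128, -50 and 5. The Slc30a1 window had 2 matches, at -43 and 31, a number reached or passed by 7.11% of windows. Mt4 had 1 match, at -91, and Mt3 had 1, at 28. Of all windows, 25.7% held at least 1. No match was found in the Mtf1 window, and 1 of the 2 windows of Slc39a8 had 1. Base composition differed too, with 73.0% G and C in the Slc30a1 window, 67.7% in that of Mt2, 66.3% in that of Mtf1, which had no match, and 60.7% in that of Mt1. The windows of Mt4 and Mt3 had 60.3% and 56.0%, those of Slc39a8 had 48.0% and 58.7%, and the median over the table was 52.7%. A match in these letters is a description and not a bound site. The table's start sites were taken as given and were not checked against another source. Positions, counts and missing motifs, here and below, therefore hold for these windows alone. A motif outside them, or counted from another start site, was not searched.

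**Figure D1:**
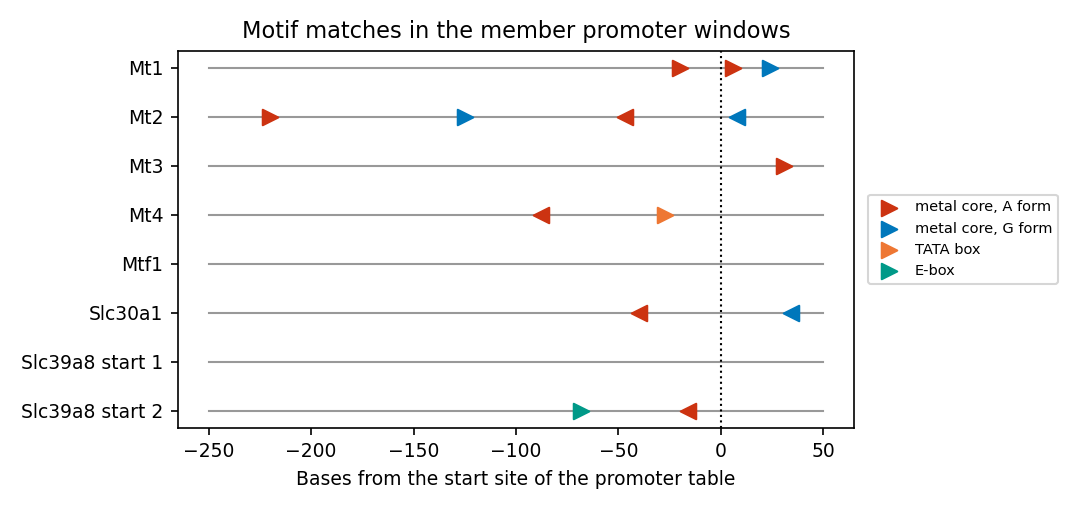
Matches in 8 promoter windows of 7 genes, plotted by distance in bases from the start site of the RefSeq table; triangles point right for the plus strand and left for the minus strand. The Mt2 window holds 4 matches to the metal response core, that of Mt1 3 and that of Slc30a1 2.

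Other motifs were rarer in these windows. The E-box CACGTG, bound by Usf1 and Usf2 among others, was present in 7.15% of all windows and here only in a window of Slc39a8. TATAAA, on either strand, was present in 13.6% of all windows and here only in that of Mt4. The palindrome TTCNNNGAA, to which STAT factors bind, was present in 8.30% of all windows and in none of the 8 windows of these genes. No match of one motif overlapped a match of another in these 8 windows.

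The deposited values are MAS5 signals, a linear brightness per probe set scaled array by array, so each signal was read against a background limit set on its own array. The limit was the 95th percentile of probe sets for genes of tissues other than muscle, such as odorant receptors and hair keratin-associated proteins. It lay between 784 and 822 on the MOE430A arrays and between 2542 and 3237 on the MOE430B arrays. The 100 probe sets present on both chips read higher on MOE430B, by a median log2 of 1.86. Signals of the 2 chips are therefore not on one scale. To be called, a probe set had to exceed the limit in replicates 1, 2 and 3 alike, and 1 such probe set was enough for its gene. Signals of different probe sets depend on probe affinity, so no gene's level is set against another's. The spheres are bulk samples, in which fewer expressing cells and less RNA per cell cannot be told apart.

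Of the 8 genes, 5 were above the limit, namely Mt1, Mt2, Mtf1, Slc39a14 and Slc39a8. Over all genes the share above the limit was 36.2%, and it rose with the number of probe sets a gene has, from 22.1% with 1 probe set to 42.3% with 2 and 59.2% with 3 or more. Mt2, Mt3 and Mt4 had 1 probe set each, Mt1, Slc30a1 and Slc39a8 had 2, Slc39a14 had 4 and Mtf1 had 5. By probe set, 7 of 12 passed on MOE430A, where 35.1% of all probe sets did, and 1 of 6 on MOE430B, where 10.1% did. With 8 genes these counts are a description of the genes and were not tested. With the 99th percentile as limit 3 of the 8 genes were above it, as Mtf1 and Slc39a8 then fell short of it, and the share over all genes was 27.0%.

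**Figure D2:**
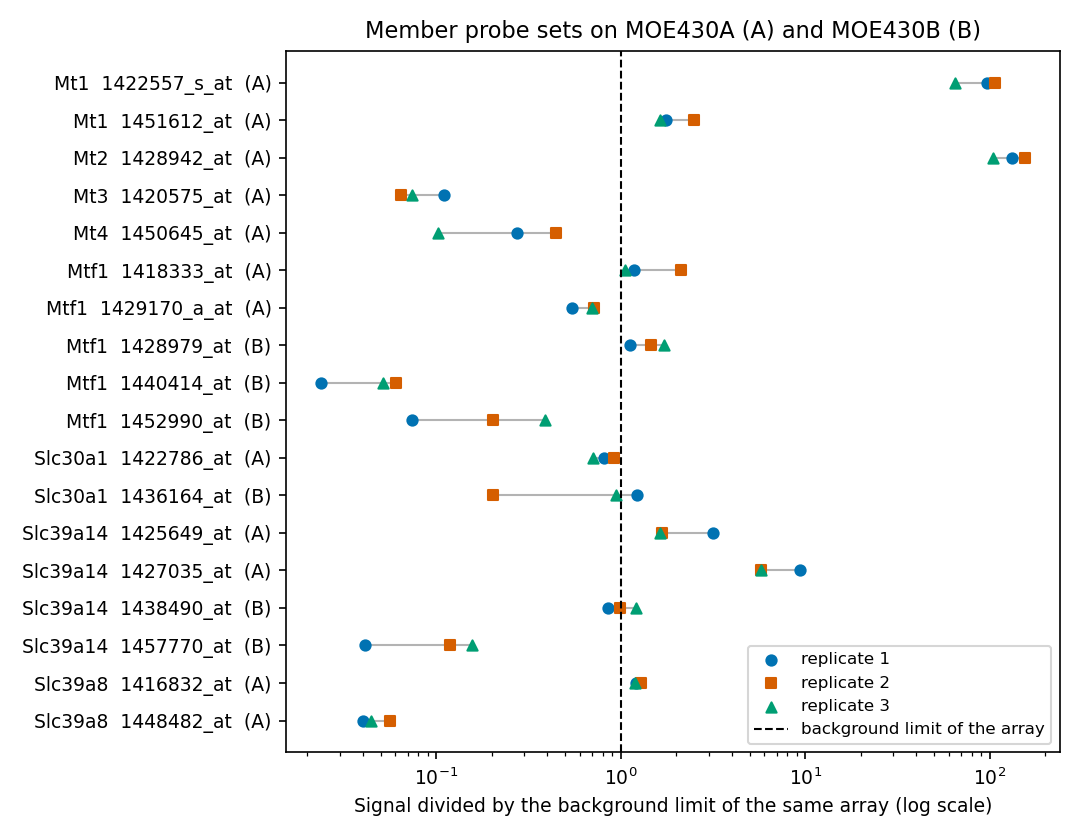
Signal of each of the 18 probe sets divided by the background limit of the same array, on a log scale, with 1 point per replicate and the limit as a dashed line. Mt2 and 1 Mt1 probe set lie at 65.1 to 155 times the limit, while all points of Mt3 and Mt4 lie below it.

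Mt2 had a single probe set, 1428942_at on MOE430A, which read 108893, 121259 and 85308 in replicates 1, 2 and 3, a mean of 105153 ± 18265 (SD, n = 3). All 3 arrays lay far above the limit, the lowest at 104 times it. Its signal was at percentile 99.8 to 99.9 among all probe sets of its array. The Mt2 product is one of the widely expressed metallothioneins.

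Mt1 encodes the other widely expressed metallothionein and had 2 probe sets on MOE430A. The set 1422557_s_at read 79692, 84141 and 53463 (mean 72432 ± 16577, SD, n = 3). Its lowest array was at 65.1 times the limit, and its signal was at percentile 99.4 to 99.7. The suffix _s_at marks probes that can match more than 1 transcript, and whether part of this signal came from Mt2 was not tested. The set 1451612_at, without that suffix, read 1437, 1969 and 1347 (mean 1584 ± 336). It also exceeded the limit on every array, by 1.64 times on the lowest, at percentile 71.9 to 80.1. Both probe sets therefore placed Mt1 above the limit, with very unequal signal, and the call did not rest on the set of shared sequence.

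Mt3, whose product was first known as a growth inhibitory factor of brain, read 90.1, 50.6 and 60.8 on its only probe set, 1420575_at (mean 67.2 ± 20.5, SD, n = 3). No array reached the limit, and the highest was at 0.11 of it. Mt4 read 225, 352 and 84.4 on 1450645_at (mean 220.2 ± 134). No array of Mt4 reached the limit either, and the highest, replicate 2, was at 0.448 of it. Markers of the tissues in which these genes are known were also under the limit. Of the neuron and astrocyte genes Gfap, Aqp4, Tubb3, Snap25 and Slc1a2, 0 of 5 were above it, and of the squamous keratins Krt5, Krt14, Krt1, Krt10 and Krt13, 0 of 5. Of all genes, 36.2% were above the limit. A signal under the limit does not show that a transcript was absent.

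**Figure D3:**
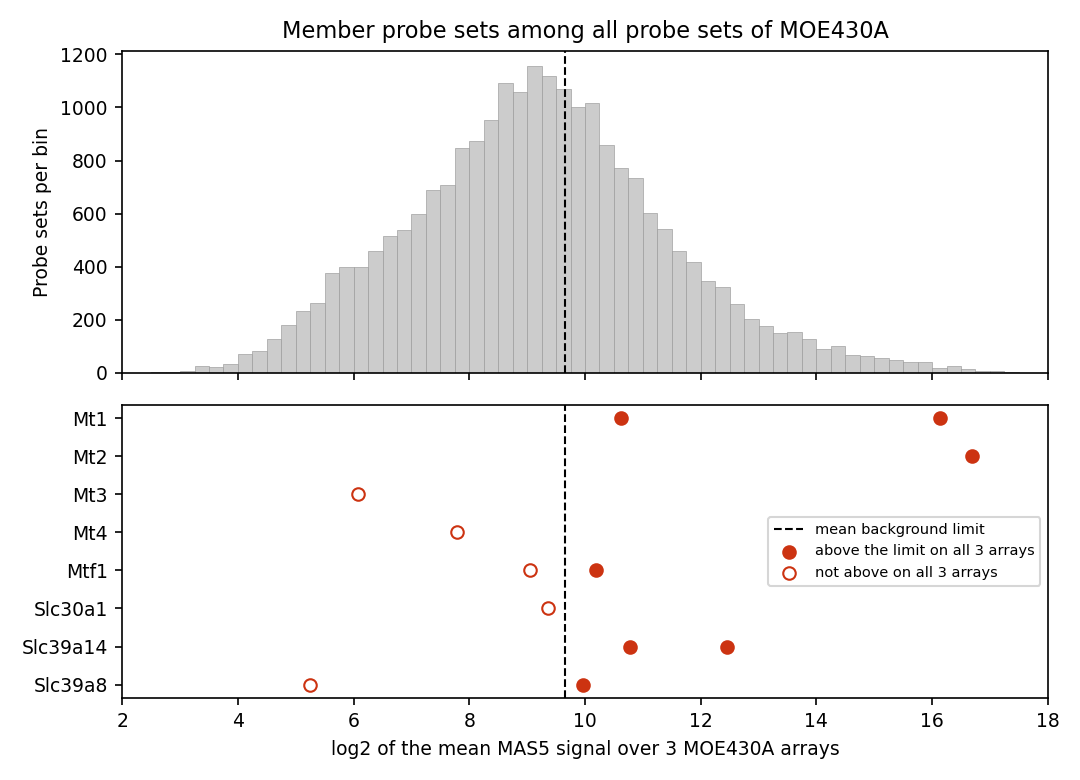
Number of MOE430A probe sets by log2 of their mean signal over 3 arrays (top) and the 12 probe sets of the 8 genes on the same axis (bottom), with the mean background limit as a dashed line. Mt2 and 1 Mt1 probe set lie in the upper tail, Mt3 and the second Slc39a8 probe set in the lower part.

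Mtf1, the factor that senses zinc at these promoters, had 5 probe sets, of which 2 were above the limit. On MOE430A the set 1418333_at read 967, 1654.5 and 866 (mean 1162 ± 429, SD, n = 3), just over the limit in replicates 1 and 3 and at 2.11 times it in replicate 2. On MOE430B the set 1428979_at read 3632, 4279 and 4372 (mean 4095 ± 403), at 1.12, 1.46 and 1.72 times the limit of those arrays. The 3 other sets were under the limit on every array. They were 1429170_a_at on MOE430A, with a mean of 527 ± 71.3, and 1440414_at and 1452990_at on MOE430B, with means of 129 ± 50.5 and 609 ± 378. Mtf1 thus passed on both chips by 1 probe set each, close to the limit on the lowest array of each, at 1.05 and 1.12 times it.

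Slc30a1, the zinc exporter of the plasma membrane and a target of the Mtf1 product, was not called above the limit. Its MOE430A set 1422786_at read 663, 722 and 584 (mean 656 ± 69.2, SD, n = 3), at 0.711 to 0.921 of the limit. Its MOE430B set 1436164_at read 3979.8, 597 and 2401 (mean 2326 ± 1692). Only replicate 1 exceeded the limit on that chip, at 1.23 times it, and the readings spanned a 6.66-fold range. The MOE430B array of replicate 1 came from another chip lot than those of replicates 2 and 3, per the headers of the array run files. The part of the lot in this spread was not tested. Of the 6 probe sets of these genes on MOE430B, the 5 others were lowest in replicate 1, as were 36.6% of all probe sets of that chip.

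Slc39a14 and Slc39a8 encode related importers that carry zinc, manganese and iron into cells, and cadmium as well. Slc39a14 is known to be induced by interleukin-6 family cytokines in liver. Its set 1427035_at on MOE430A read 7647, 4501 and 4761 (mean 5637 ± 1746, SD, n = 3), with the lowest array at 5.74 times the limit. The set 1425649_at on the same chip read 2604, 1321 and 1349 (mean 1758 ± 733), with the lowest array at 1.64 times the limit. Replicate 1 was the highest on both sets. On MOE430B the set 1438490_at read 2780.4, 2921 and 3087 (mean 2929.7 ± 154), above the limit in replicate 3 alone, and 1457770_at read 134, 346 and 399.8, under it on every array. The call of Slc39a14 rested on both MOE430A sets.

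Slc39a8 had 2 probe sets on MOE430A that disagreed. The set 1416832_at read 997, 1005 and 986 (mean 996 ± 9.56, SD, n = 3), the narrowest spread among the 8 called probe sets of these genes, with the lowest array at 1.20 times the limit. The set 1448482_at read 32.7, 44.3 and 36.4 (mean 37.8 ± 5.90), at percentile 4.69 to 8.35. The annotation gives both sets the same transcript, and where along it their probes lie was not examined. The Gapdh control sets of the chips read 11.9 to 16.5 times higher at the 3' end than at the 5' end, over all 6 arrays. The part of this difference in the disagreement of the Slc39a8 sets was not tested.

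Mt1 and Mt2 varied in the same order over the MOE430A arrays. All 3 of their probe sets were highest in replicate 2 and lowest in replicate 3, with replicate 1 between them. The highest reading was 1.57 times the lowest for Mt1 1422557_s_at, 1.46 times for Mt1 1451612_at and 1.42 times for Mt2. The median of this ratio was 1.28 over all 7938 probe sets above the limit on MOE430A, and 86.6%, 77.6% and 73.2% of them had a smaller ratio than these 3 sets in turn. Among called sets with a mean signal within 2 times their own, the shares were 92.6%, 75.4% and 84.0%. Over all 7938 sets the share was 97.2% for Mtf1 1418333_at and 0.403% for Slc39a8 1416832_at. It was 97.8% for Slc39a14 1425649_at and 92.4% for Slc39a14 1427035_at. On MOE430B the ratio was 1.20 for Mtf1 1428979_at, beside a median of 1.35 over the 2271 probe sets above the limit there. Of those 2271, 24.8% had a smaller ratio. The order of replicates shared by Mt1 and Mt2 was seen in 17.1% of those 7938 probe sets. Among the 133 with a mean signal over 50000, a threshold chosen after the values were seen, it was 39.1%. With quantile normalization replicate 1 became the highest for Mt2 and for Mt1 1422557_s_at, while replicate 3 stayed the lowest for all 3 sets. With no repeat of a replicate on MOE430A, a difference between replicates could not be tested for Mt1 and Mt2.

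**Figure D4:**
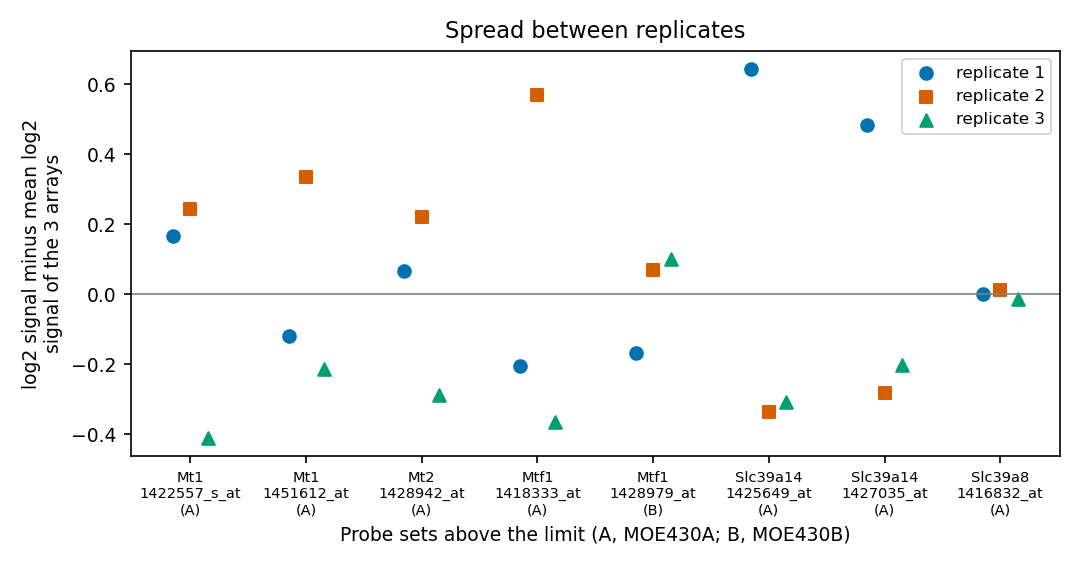
Difference of each array's log2 signal from the mean of the 3 arrays, for the 8 probe sets above the limit, with 1 point per replicate. Replicate 3 is lowest for the 3 sets of Mt1 and Mt2, replicate 1 is highest for both Slc39a14 sets, and the Slc39a8 points nearly coincide.

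Replicates could be tested for genes above the mean limit on both chips, where the chips give a repeat reading of each replicate. The limma moderated F-test called 7 of 622 such genes at an adjusted p under 0.05, which is 1.13%. Mtf1 and Slc39a14 were in this test and did not pass. Each adjusted p is for any difference among the 3 replicates. The difference and its SE are for the highest replicate against the lowest. The log2 signal of Mtf1 in replicate 2, its highest, exceeded that in replicate 1, its lowest, by 0.51 ± 0.32 (SE; adjusted p = 0.81 with limma). That difference was 0.77 on MOE430A and 0.24 on MOE430B. For Slc39a14, replicate 1 exceeded replicate 2 by 0.40 ± 0.29 on the same scale (adjusted p = 0.854 with limma). For Slc39a14 the chips differed in sign, with 0.87 on MOE430A and -0.07 on MOE430B. The higher Slc39a14 signal of replicate 1 was seen on MOE430A. The MOE430B reading came from 1438490_at, at 0.859, 0.998 and 1.21 times the limit in replicates 1, 2 and 3. So near the limit, it cannot show whether the chips disagree.

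The wider zinc transporter families were described from fixed lists, without the members above. The Slc30a family moves zinc out of the cytosol, into vesicles or out of the cell. Of 9 further members, 4 were above the limit, beside 36.2% of all genes. The 4 were Slc30a4, at 6779 ± 411 (SD, n = 3), and Slc30a5, Slc30a6 and Slc30a7, which load zinc into the secretory pathway, at 2298 ± 224, 1210.3 ± 146 and 2516 ± 362, all on MOE430A. Slc30a3 and Slc30a9 exceeded the limit on 2 of 3 arrays. Slc30a2, Slc30a8 and Slc30a10 did so on none.

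The Slc39a family moves zinc into the cytosol, and 9 of 12 further members were above the limit, beside 36.2% of all genes. Slc39a1, an importer of the plasma membrane, read 8466 ± 1834 (SD, n = 3), Slc39a6 read 7074 ± 695 and Slc39a7, which releases zinc from the endoplasmic reticulum and Golgi, read 8313 ± 557 on an _s_at set. Slc39a10, described as repressed through the Mtf1 product, read 12592 ± 2796 on MOE430B, where its lowest array was at 3.24 times the limit. Slc39a13, linked to connective tissue, read 1389 ± 369. Slc39a3, Slc39a4, Slc39a9 and Slc39a11 were also above the limit, at 1.04 to 1.58 times it on their lowest arrays. Of several probe sets, 2 of 4 passed the limit for Slc39a6 and 1 of 3 for Slc39a9. For Slc39a3 and Slc39a10 1 of 2 each passed the limit. Slc39a2, Slc39a5 and Slc39a12 were above it on no array. The 99th percentile limit left 5 of the 12 above it.

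**Figure D5:**
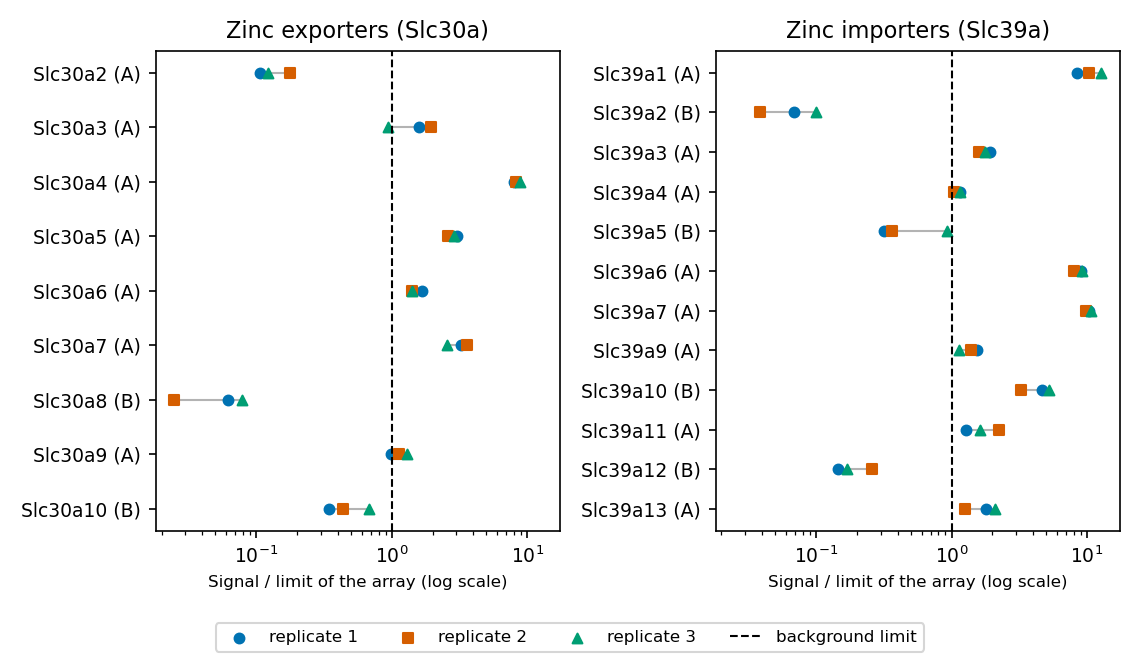
Signal divided by the background limit of the array, on a log scale, for the further zinc exporters (left) and importers (right), with 1 point per replicate from the probe set with the highest ratio on its lowest array; A and B name the chip. The 9 importers and 4 exporters called lie to the right of the dashed line with all 3 points.

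Further genes described as targets of the Mtf1 product were above the limit for 5 of 8. The share was 36.2% over all genes and 42.3% over those with 2 probe sets. Selenow, a small selenoprotein, read 49729 ± 5900.1 (SD, n = 3) on an _x_at set, thioredoxin Txn1 47698 ± 2656, Gclc, an enzyme of glutathione synthesis, 2431 ± 294 on an _s_at set, Ndrg1 2545 ± 244 on an _s_at set, and heme oxygenase Hmox1 1688 ± 376. The iron exporter Slc40a1 read 661 ± 146, Csrp1 120.1 ± 31.6 and the growth factor Pgf 85.1 ± 18.7, none of them above the limit on any array. For Ndrg1 2 of 5 probe sets passed the limit, and for Selenow, Txn1 and Gclc 2 of 2 each. Several of the listed genes have other regulators as well.

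Factors described at metallothionein promoters were above the limit for 6 of 7. The share was 36.2% over all genes and 59.2% over those with 3 or more probe sets. Stat3, which acts downstream of LIF, read 4948 ± 228 (SD, n = 3), the glucocorticoid receptor Nr3c1 2425 ± 119 and Nfe2l2, a factor of the oxidative stress response, 12457 ± 2317. Usf2 read 2413 ± 287, Sp1 2557 ± 259 and Ep300, a coactivator, 4299 ± 786 on MOE430B. Usf1 read 568 ± 168 and was above the limit on no array. Of several probe sets, 2 of 4 passed the limit for Stat3, 2 of 6 for Nr3c1 and 1 of 2 for Nfe2l2. For Sp1 it was 2 of 3 and for Usf2 2 of 2, and Ep300 had 1 probe set.

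As a check of the cells, the fibroblast and fibro-adipogenic markers Pdgfra, Col1a2, Dcn and Col3a1 were above the limit for 4 of 4, and the muscle stem cell and myoblast markers Pax7, Myf5, Myod1 and Myog for 0 of 4, although Myod1 and Myog exceeded it on 2 of 3 arrays. Over all genes 36.2% were above the limit. Kdr was above it among 4 endothelial markers, and Csf1r and Adgre1 among 4 of macrophages and leukocytes. Cdh5 and Cd68 exceeded it on 2 of 3 arrays and Ptprc on 1 of 3. The part of these cell types in the signals of the 8 genes was not tested.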

How the data were processed

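Total RNA of 1 condition was measured on 6 arrays, 3 of MOE430A and 3 of MOE430B. The deposited values are signal intensity per probe set, for which the submitters' processing notes name MAS5; its version is not given in the sources used here. The 2% trimmed mean of the deposited intensities was 1500.2 to 1500.8 on the 6 arrays. The array run files, which the authors deposited with other settings such as the chip lot, were used for the lot alone.

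Probe sets with 1 gene symbol in the platform annotation (20393 of 22690 on MOE430A, 14674 of 22575 on MOE430B) were named through RefSeq for GRCm38.p6, which held 20364 and 14499 of them. Background limits came from 151 and 44 reference probe sets. Of these, 2.65% and 4.55% were above their own limit. The replicate comparison used limma 3.58.1 (R 4.3.3) on log2 signals (moderated F-test, intensity trend, chip as covariate), with Benjamini-Hochberg adjustment over all genes tested. The test was also run on simulated data with the same noise for every gene. These data need not share that setting, so the simulation does not vouch for the calls made here. Python 3.11.15, pandas 2.3.3, numpy 2.4.6 and matplotlib 3.10.9 were used. RefSeq promoter windows, 250 bases before and 50 after the start, were found for 7 of the 8 genes.

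The members and lists were chosen with earlier results of these data known. All 8 members and every listed gene could be named, and of several probe sets the one highest relative to its limit on its lowest array is printed for list genes. Other probe sets of a called list gene could lie under the limit. With 3 arrays per chip, their number limits the precision. Alternatives were other limits and reference sets, probe set rules, MOE430A alone, other normalizations and variance models, and leaving out each replicate.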

Additional observations from a re-analysis of the deposited data

How the results depend on the processing

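Of the 8 genes, 5 were above the limit under 9 of 10 alternatives, and 3 with the 99th percentile limit, where Mtf1 fell to 0.755 of the limit and Slc39a8 to 0.776 on the lowest array. Leaving out each replicate gave 5 each time. Mt1, Mt2 and Slc39a14 were called above the limit in all 10, and Mt3, Mt4 and Slc30a1 in none. Zinc exporters above the limit rose from 4 to 7 of 9 with the array median as limit, where the share over all genes was 53.8%, and importers went from 9 to 5 of 12 with the 99th percentile limit, where it was 27.0%. The other lists stayed within 1.5 times their counts. The limma replicate test called 7 genes, 4 with array median centring (39 at an unadjusted p under 0.05), 0 with quantile normalization (39 unadjusted), 0 with no filter on low signals (92 unadjusted) and 0 with no intensity trend (56 unadjusted). Leaving out a replicate gave 0 to 5, with 0 without replicate 1 (44 unadjusted), 0 without replicate 2 (34 unadjusted) and 5 without replicate 3. The cause was not tested. Mtf1 did not pass in any of these, with limma adjusted p of 0.651 to 0.994, nor did Slc39a14 where tested, at 0.828 to 0.994. Without replicate 3 Slc39a14 was not in the test, as its MOE430B signal was then under the limit. No paired analysis was possible because the chips were not compared and the replicate number is the factor tested.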

Other observations

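Metallothioneins bind copper as well as zinc, and genes of copper handling were above the limit for 8 of 10. The share was 36.2% over all genes and 59.2% over those with 3 or more probe sets. The copper chaperones Atox1, which serves the copper pumps, and Cox17, which serves cytochrome oxidase, read 11916 ± 1232 on an _a_at set and 12346 ± 1961 on an _s_at set (SD, n = 3), both on MOE430A. Ccs, the chaperone of superoxide dismutase, read 2230.3 ± 664. Sod1 itself read 119959 ± 9342 on an _s_at set of MOE430B, with its lowest array at 36.6 times the limit. The copper importer Slc31a1 was just above the limit at 926 ± 84.0, and the related Slc31a2 read 1185 ± 183. Of the copper pumps, Atp7a read 1857 ± 223 and was above the limit, whereas Atp7b, known from liver, read 774 ± 437 and exceeded it on 1 of 3 arrays. Commd1 read 960.03 ± 245 on an _s_at set and exceeded it on 2 of 3 arrays. Of several probe sets, 3 of 5 passed the limit for Atox1 and for Sod1, and 2 of 2 for Slc31a1. For Cox17, Atp7a and Slc31a2 it was 1 of 2 each. The ferroxidase ceruloplasmin (Cp), which carries copper, passed the limit on 6 of 8 probe sets. Its printed set, an _a_at set on MOE430A, read 11588, 6735 and 4920.4 in replicates 1, 2 and 3. As deposited, these readings spanned more than those of Mt1 or Mt2 and were highest in another replicate. With quantile normalization, however, Mt2 and Mt1 1422557_s_at were highest in replicate 1.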
